A study of Mus musculus with 8 samples.

Results

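The regions described here carried no TET1 peak in the 3 nuclease-treated libraries but had one in all 3 mock-treated libraries, and lay far from any region that had a peak in all 6. They were found by merging overlapping or touching peaks of the 6 lists on chromosomes 1 to 19 into 134739 regions. The 29094 regions with a peak in every list are called persistent. Mock-only regions numbered 3145, or 6.64% of 47377 regions that all 3 mock lists held. Of these, 1838 had an edge at least 10000 bp from the edge of every persistent region, and they are called far mock-only regions. They made up 19.6% of the 9354 regions at that distance with a peak in all 3 mock lists. The other 1307 lay closer. Presence and absence of peaks chose these regions, so the difference between the treatments at them is fixed by the choice and was not tested. They were set against 7516 comparison regions, which were equally far from persistent regions and had a peak in all 3 mock lists and in 1 or 2 nuclease-treated lists (3096 and 4420 regions).

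All libraries came from mouse embryonic stem cells (mESHA-Tet1) in which the endogenous Tet1 gene carries an HA tag. The nuclease-treated cells were permeabilised and kept for 20 min with RNase H1 (0.2 U/ul) and Nuclease S1 (0.05 U/ul) together. The mock-treated cells were permeabilised and kept alike without the enzymes. Both were crosslinked with disuccinimidyl glutarate and formaldehyde and precipitated with an HA antibody, with 3 libraries per treatment and 1 pooled input per condition. The line is E14TG2a by the series design, but its strain is labelled C57BL/6N. Since no label states whether replicates were separate cultures, a p-value measures only the spread between these libraries. No library received either enzyme alone.

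TET1 is a dioxygenase that oxidises 5-methylcytosine in DNA, a step towards removal of the methyl group. In embryonic stem cells it is known to bind CpG-rich promoters most densely and also many distal sites. RNase H1 digests RNA that is paired with DNA, and Nuclease S1 cuts nucleic acid that is unpaired. Both can act on an R-loop, in which RNA pairs with one DNA strand and the other strand is left unpaired. Positions below are on mm9, 1-based, and regions are named by position because gene annotation and sequence of that build were not used here.

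Mock-only status was more frequent away from persistent regions. The share of 19.6% excludes persistent regions by construction, and its like comparison does so too. Among the 8929 regions that lay nearer than 10000 bp to a persistent region, with a peak in all 3 mock lists and in fewer than 3 nuclease-treated lists, 14.6% were mock-only. These shares are a description, since the rule uses the same peak calls. Beyond the limit the share changed little with distance. It was 18.9% at 10000 to 20000 bp, 20.1% at 20000 to 50000 bp, 20.7% at 50000 to 100000 bp and 21.0% at 100000 to 200000 bp, then 16.6% beyond 200000 bp. Within the limit it was 12.4% under 1000 bp and 17.3% at 5000 to 10000 bp. The far mock-only regions lay at a median of 39856 bp from a persistent region and the comparison regions at 39986 bp.

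The count rests on all 6 lists. Leaving out a library loosens the rule, and the number of far mock-only regions was then 2969, 3029 and 3589 without mock replicates 1, 2 and 3. It was 2773, 2386 and 3036 without nuclease-treated replicates 1, 2 and 3. With the lists cut to equal length the number was 1405.

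The far mock-only regions were of middling strength in the mock libraries. Strength is given as the fragment coverage at the peak summit divided by the genome-wide mean coverage of the same library (times background). Their median was 7.55, 7.62 and 7.51 times background in mock replicates 1, 2 and 3, against 7.99, 8.06 and 7.98 in the comparison regions. In fragments these medians were 17, 17 and 16, against 18, 18 and 17 in the comparison regions, so the group medians differed by 1 fragment in each library. The median far mock-only peak ranked at the 45.4 ± 1.95 percentile of its mock list by q value, and the median comparison peak at 50.7 ± 2.02 (SD, n = 3 libraries). Most of the 2 distributions overlapped, and the gap widened in the upper tail. Averaged over the mock libraries, 298 far mock-only regions (16.2%) reached 10 times background, against 1900 comparison regions (25.3%). At 15 times background there were 29 (1.58%) against 341 (4.54%). Comparison regions with 2 nuclease-treated peaks were stronger than those with 1, at 8.46 ± 0.0415 and 7.85 ± 0.302 times background (SD of the library medians, n = 3). Strength is tied to the chance of a peak call, and peak calls chose the groups, so these differences are a description.

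Width separated the groups more than strength did. The median width of the strongest peak was 354 ± 6.66 bp at far mock-only regions and 421 ± 5.29 bp at comparison regions (SD of the mock library medians, n = 3). Comparison regions with 1 nuclease-treated peak lay between, at 386 ± 7.86 bp, and those with 2 had 446 ± 6.37 bp. Only 47 far mock-only regions (2.56%) spanned 1000 bp or more after merging, against 699 comparison regions (9.30%), and none reached 2000 bp. Nearly every far mock-only region, 99.1%, was a single peak in each mock list, and so were 97.5% of comparison regions. The 1307 mock-only regions nearer to persistent regions had much the same values, with a width of 357 ± 6.81 bp and 7.56 ± 0.0546 times background, against 7.56 ± 0.0546 at far mock-only regions (SD of library medians, n = 3). The equal strength reflects equal medians in whole fragments, 17, 17 and 16 in both groups. Neither trait thus set the far mock-only regions apart from the nearer ones. The deposited fold, a ratio over local background, was 5.11 ± 0.0417 at far and 4.91 ± 0.0807 at nearer ones. Local background was 1.04 ± 0.0131 and 1.15 ± 0.00696 times the genome-wide level (SD of library medians, n = 3). Merged regions hold more peaks where more lists contribute, so single peaks are the like comparison. Both differences turned round, to 1.20 times background and 10.7 bp, when peaks whose local background was over 2 times the genome-wide level were left out of all lists. That filter takes 10.9% to 14.7% of the nuclease-treated peaks and 2.53% to 2.95% of the mock peaks. Applied to the mock lists alone, it left them at -0.45 times background and -68 bp.

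**Figure D1:**
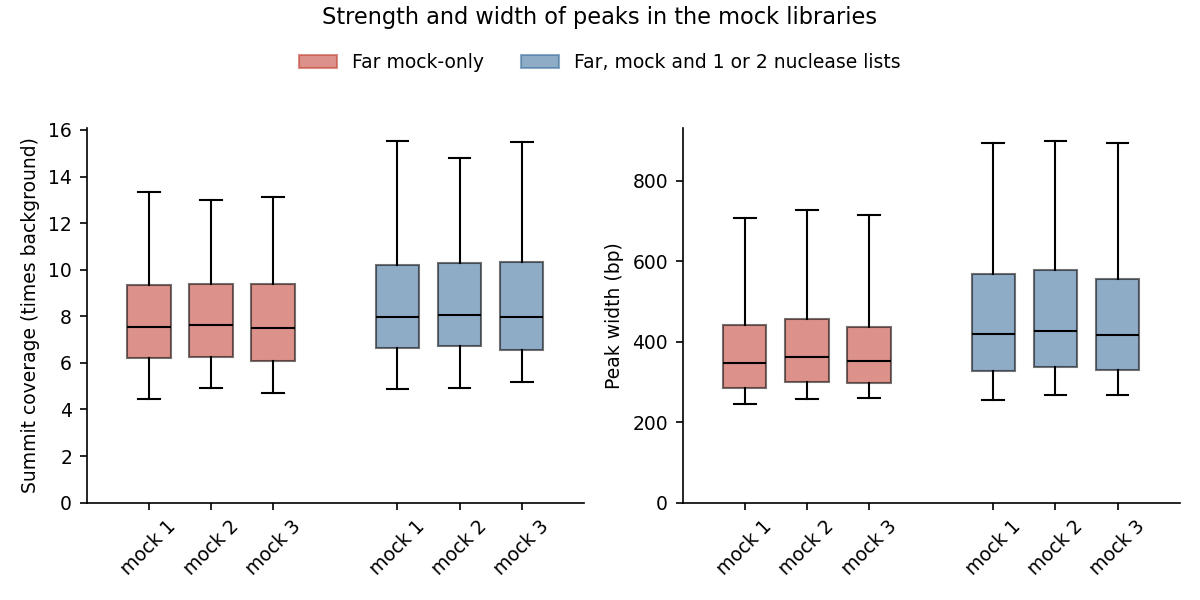
Summit coverage (left, times background) and width (right, bp) of the strongest peak per region in each mock library, for far mock-only regions and for comparison regions. Lines are medians, boxes quartiles and whiskers the 5th and 95th percentiles; the boxes overlap, and far mock-only medians are 348 to 361 bp against 417 to 427 bp in comparison regions.

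The share of far regions that were mock-only was lower at stronger and at wider peaks. By mean mock coverage, it was 25.7% under 6 times background, 21.0% at 7 to 8, 16.0% at 10 to 12 and 7.84% at 15 or more. By mean peak width it was 39.1% at 250 to 300 bp, 23.2% at 350 to 400 bp, 13.4% at 500 to 600 bp and 5.30% at 800 bp or wider. The gradient with width was present at a fixed strength as well. Between 6 and 7 times background, 39.1% of regions with peaks under 300 bp were mock-only, against 13.6% of those with peaks of 500 bp or more. Between 9 and 10 times background these were 45.5% (35 of 77 regions) and 8.58% (26 of 303 regions). Along the other axis, regions with peaks under 300 bp showed no such drop with strength, being 34.6% mock-only at 7 to 8 times background and 40.0% at 8 to 9. Between 250 to 300 bp and 800 bp or wider the gap was 33.8 percentage points, and with peaks of high local background removed from every list this became 5.69 points. Strength in mock is tied to the chance of a peak call, which the rule uses, and width moves with strength. These gradients are thus a description and no independent measure. Wide regions also offer more sequence to overlap with a peak, and the part of either in the gradients was not tested.

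**Figure D2:**
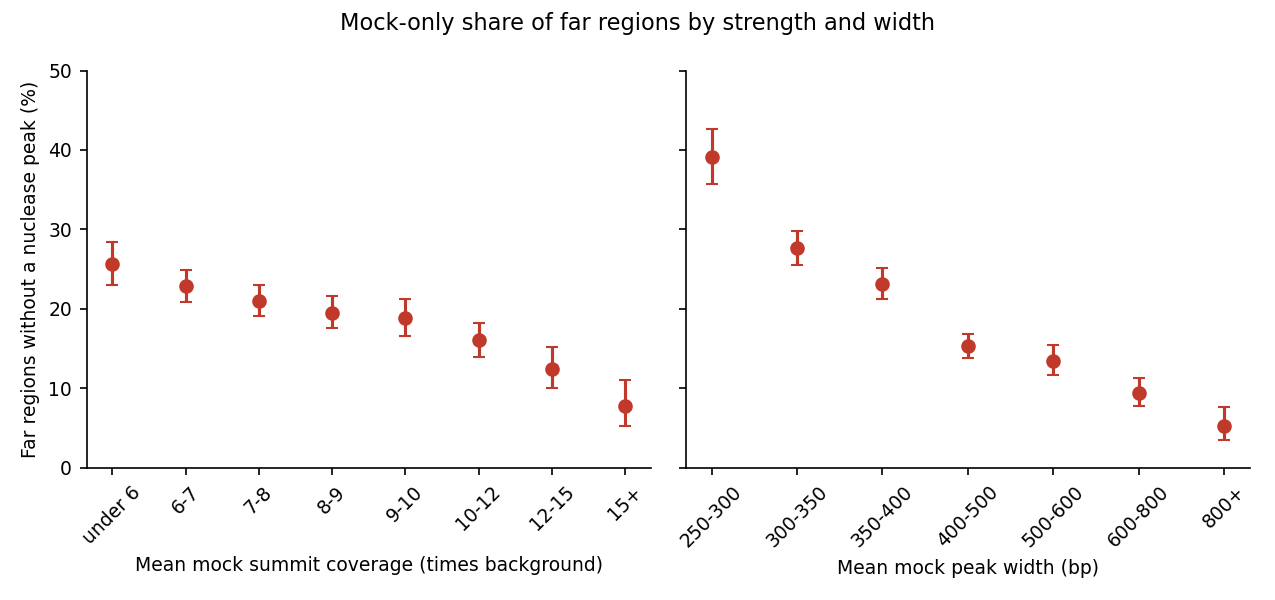
Percentage of far regions with a peak in all 3 mock lists that had no nuclease-treated peak, by mean mock summit coverage (left, times background) and mean mock peak width (right, bp). Bars are exact 95% binomial intervals for counting error only, and 3 regions under 250 bp are left out; the share is 39.1% in the narrowest bin shown and 5.30% in the widest.

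Summits of far mock-only regions were closer together in the mock libraries than those of comparison regions, but this depended on peak width. The outermost of the 3 mock summits were a median of 62 bp apart, against 76 bp in comparison regions, and lay within 100 bp in 70.6% against 60.7% of regions. Between any 2 mock libraries, the median summit distance was 7 bp shorter than in comparison regions (SD 1 bp over the 3 library pairs). The span was shorter in each bin of strength. At 7 to 8 times background the median span was 63.5 bp in far mock-only and 85 bp in comparison regions, and at 10 to 12 times background 40.5 and 50 bp. At matched width the groups were nearly alike or in the other order. Among peaks of 300 to 350 bp the spans were 55 bp in far mock-only and 58 bp in comparison regions, and at 500 to 600 bp 93 and 100 bp. At 600 to 800 bp they were 229 and 135 bp, and at 800 bp or wider 382 and 211 bp, over 105 and 27 far mock-only regions. Region strength agreed moderately between mock libraries, with Spearman's rho of 0.54 to 0.59 over the 1838 far mock-only regions and 0.60 to 0.65 over the 7516 comparison regions. These correlations are a description, since libraries share an input and regions of few fragments.

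Local background at these peaks was near the genome-wide level in mock cells. Its median was 1.04 ± 0.0131 times the genome-wide level at far mock-only regions and 1.06 ± 0.00490 at comparison regions (SD of library medians, n = 3), and it passed 2 times that level at 14 (0.762%) and 79 (1.05%) regions. At the comparison regions that had a nuclease-treated peak, the local background was 1.37, 1.36 and 1.33 times the genome-wide level in nuclease-treated replicates 1, 2 and 3, against 1.08, 1.09 and 1.07 in mock. A higher local background raises the coverage a peak call needs. The lists give no value where no peak was called, so coverage and background in nuclease-treated cells at the far mock-only regions are unknown, and the part of the shared input in their missing calls was not tested. Where a nuclease-treated peak was present in comparison regions, its coverage was a median of 0.886, 0.926 and 0.866 of the mean mock coverage of the same region in replicates 1, 2 and 3. Only called peaks enter this ratio.

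The far mock-only regions were spread over all 19 chromosomes in roughly the proportions of the comparison regions, which were not tested over all chromosomes together. Chromosome 3 held 6.91% of far mock-only and 5.64% of comparison regions, and chromosome 4 held 6.26% and 7.18%. Chromosome 1 held the most, 146, and chromosome 19 the fewest, 55. The mock-only share of far regions ran from 17.0% on chromosome 13 (65 of 383 regions) to 24.3% on chromosome 19 (55 of 226). The exact 95% binomial interval of each of the 19 chromosomes included the overall 19.6%. Per 10 Mb between the first and last region of a chromosome there were 5.54 to 9.45 far mock-only regions, a 1.71-fold range, and 21.6 to 42.5 comparison regions, a 1.96-fold range. Persistent regions ranged over 4.31-fold, from 61.4 per 10 Mb on chromosome 12 to 265 on chromosome 11. Across the 19 chromosomes, the density of far mock-only regions went with that of persistent regions (Spearman's rho 0.67). The density of comparison regions did so too (rho 0.75), while the mock-only share did not (rho -0.093). These are descriptions over chromosomes of the same libraries.

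**Figure D3:**
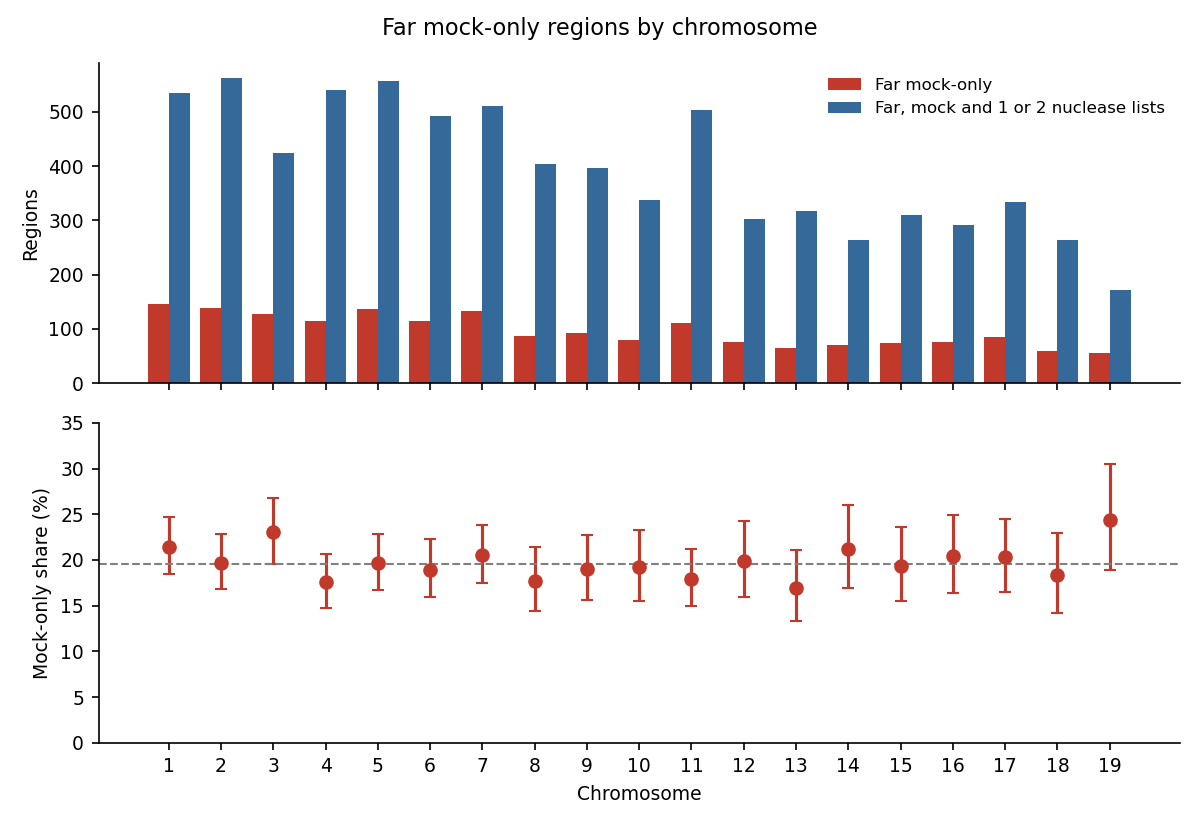
Number of far mock-only and comparison regions on each chromosome (top) and the mock-only percentage of both together (bottom) with exact 95% binomial intervals for counting error only. The dashed line is the overall 19.6%, which every interval includes; the percentages run from 17.0% to 24.3%.

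Most far mock-only regions had no other one nearby, though regions of other kinds lay closer. The median distance to the nearest other one was 296506 bp, and 120 of the 1838 (6.53%) had another within 10000 bp. Comparison regions lay a median of 335547 bp from a far mock-only region, and 4.74% had one within 10000 bp. From a far mock-only region to the nearest comparison region the median was 65168.5 bp. Another region of any kind lay within 10000 bp of 65.0% of far mock-only and 62.5% of comparison regions. Joined at gaps of up to 100000 bp, 1361 far mock-only regions stood alone, 342 fell into 171 pairs and 135 into 42 groups of 3 to 6. Whether a region was mock-only told little of its neighbour overall. The nearest other far region was itself mock-only for 363 far mock-only regions (19.8%) and for 1464 comparison regions (19.5%). The difference was 0.271 percentage points, with a 95% Newcombe interval for counting error of -1.71 to 2.35. Within 10000 bp the figures were 25.1% (100 of 398) and 17.8% (291 of 1634), with exact 95% intervals of 20.9% to 29.7% and 16.0% to 19.8%. At 10000 to 50000 bp they were 16.5% and 19.6%. Neighbours count each other, so these intervals are too narrow.

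**Figure D4:**
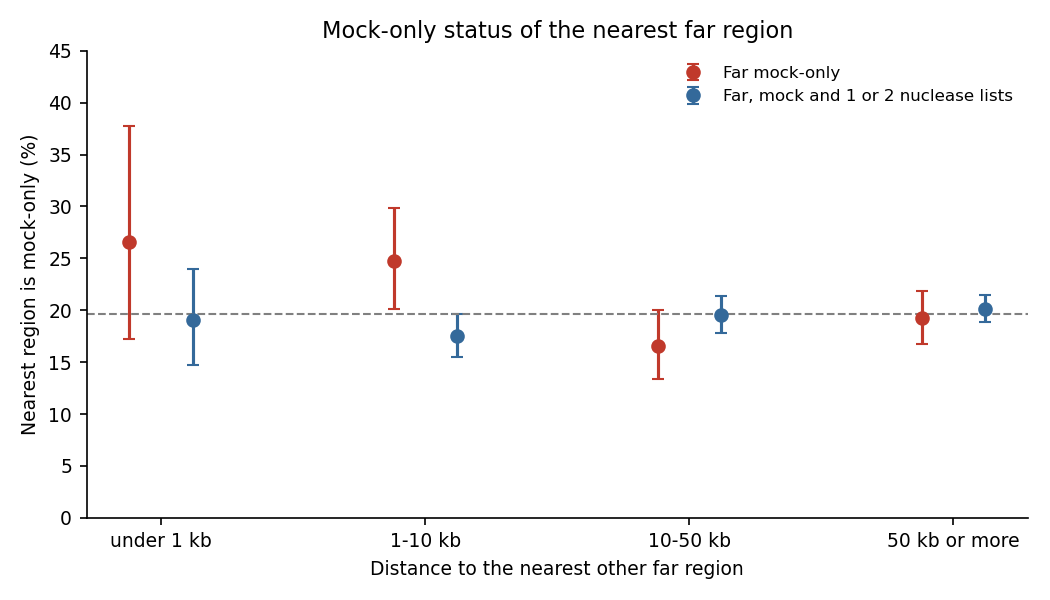
Percentage of regions whose nearest other far region was mock-only, by the distance to it, for far mock-only and comparison regions, with exact 95% binomial intervals for counting error only. The dashed line is the overall 19.6%; at 1 to 10 kb the values are 24.8% and 17.5%, and at 50 kb or more 19.2% and 20.1%.

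TET1 peaks after nuclease treatment were called about as often near far mock-only regions as near comparison regions. A region with a nuclease-treated peak lay within 10000 bp of 989 far mock-only regions (53.8%), and another such region lay within 10000 bp of 4057 comparison regions (54.0%). Its median distance was 8444 bp and 8130 bp. At 500 bp or less the numbers were 108 (5.88%) and 487 (6.48%). The remaining 849 far mock-only regions (46.2%) had no nuclease-treated peak of any library within 10000 bp. Likewise, 3459 comparison regions (46.0%) had no other region with such a peak within 10000 bp.

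The largest group, on chromosome 5 from 118771568 to 118927066, held 6 far mock-only regions within 155499 bp. Their mean mock coverage was 6.85 to 11.6 times background, and the strongest, at 118830722 to 118831599, had peaks of 878, 833 and 796 bp in mock replicates 1, 2 and 3. The stretch held 29 regions in all, of which 13 had a nuclease-treated peak and 3 were persistent. A second group of 5 spanned 88716 bp on chromosome 7 from 74789823 to 74878538, with no persistent region inside and 8 of 15 regions with a nuclease-treated peak. The last group, 5 regions over 229174 bp on chromosome 18 from 82874903 to 83104076, included 2 separate regions at 13.1 times background, from 82981942 and from 83065728. In this stretch, 19 of 42 regions had a nuclease-treated peak and 2 were persistent. Regions with and without nuclease-treated peaks thus shared each of these stretches.

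The strongest far mock-only region lay on chromosome 14 from 62667760 to 62668053. It had 51.9, 46.1 and 58.2 times background in mock replicates 1, 2 and 3, in peaks of 266, 277 and 294 bp whose summits fell within 6 bp. Its local background was at the genome-wide level, and the nearest nuclease-treated peak was 243223 bp away. No other far mock-only region came near this level. The next, on chromosome 16 from 98130603 to 98130936, had 23.1, 17.9 and 24.4 times background, and was likewise narrow, at 264 to 317 bp. Another narrow and strong region, on chromosome 11 from 42022158 to 42022485, had 15.1, 22.0 and 20.6 times background and summits within 4 bp. These 3 were narrower than the median of equally far regions of 15 times background or more. That median peak width was 657 bp over the 341 comparison regions and 459 bp over all 29 far mock-only ones. Persistent regions were not part of this comparison.

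The other strong regions were broader, and some had a nuclease-treated peak close by. On chromosome 2, the region from 128954928 to 128955547 reached 20.4, 23.7 and 16.0 times background, with a region holding a nuclease-treated peak 333 bp away. Another on chromosome 2, from 165372574 to 165373045, had 18.6, 21.1 and 16.4 times background and such a region 733 bp away. On chromosome 4, the region from 107562171 to 107562868 showed 21.8, 16.1 and 18.8 times background. The remaining 4 of the 10 strongest, on chromosomes 2, 1, 9 and 15, had means of 17.7, 17.3, 16.9 and 16.8 times background. The last, from 63891025 to 63892441 on chromosome 15, was uneven, with 11.99, 13.4 and 24.9 times background, and was also among the 5 widest at 1417 bp.

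The 5 widest regions differed in how evenly the mock libraries contributed. The widest, 1629 bp on chromosome 9 from 3174927 to 3176555, had peaks of 266, 1629 and 265 bp in mock replicates 1, 2 and 3. The region on chromosome 3 from 35831128 to 35832625 had peaks of 364, 330 and 1498 bp. In both, 1 library set the width. The region on chromosome 13 from 55013127 to 55014645 had peaks of 826, 651 and 890 bp and was weak, at 7.38 ± 1.67 times background (SD, n = 3). The second widest, from 114492927 to 114494553 on chromosome 9, had peaks of 474, 923 and 1552 bp, at 10.8 ± 2.14 times background (SD, n = 3). The chromosome 15 region named above had peaks of 969, 1064 and 1357 bp.

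The most remote far mock-only region lay 905992 bp from a persistent region, on chromosome 1 from 148344967 to 148345271, at 8.43, 7.62 and 7.51 times background. Next were a pair on chromosome 4, at 75001007 to 75001625 and 74886226 to 74886595, which were 902866 and 788085 bp away and had means of 6.496 and 6.37 times background. The others were on chromosome 18 from 51277066 and on chromosome 14 from 78274393, 769581 and 716610 bp away. At the limit itself, the members just inside were 10040, 10064 and 10105 bp away, with 6.97, 7.12 and 10.7 times background. The mock-only regions just outside were 9986, 9982 and 9969 bp away, with 5.43, 7.22 and 6.66 times background.

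As a description, regions were chosen anew on part of the libraries and read in the others. They are a larger set than the far mock-only regions described above. Regions were chosen on 2 mock and 2 nuclease-treated lists (a peak in both mock lists, none in the nuclease-treated ones, and 10000 bp or more from regions with a peak in all 4) and then read in the 2 left-out libraries. Over the 9 ways to leave out 1 library of each treatment, 3647 to 5310 regions were chosen. The left-out nuclease-treated library had a peak in 30.5% of them on average, with a range of 23.4% to 37.0%, and the left-out mock library in 61.7%, with a range of 53.6% to 66.5%. The mock figure was higher in 9 of 9 cases, by 20.5 to 41.05 percentage points. Equally far regions with a peak in 2 mock lists and in 1 of 2 nuclease-treated lists had a peak in the left-out libraries in 54.7% (nuclease-treated) and 78.0% (mock), also higher for mock in 9 of 9. A higher mock figure was thus not particular to mock-only regions. The mean gap of mock-only regions was 31.2 points, and 31.6 points with lists of equal length.

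Regions of the opposite kind showed no such gap. Those chosen for a peak in 2 nuclease-treated lists and none in 2 mock lists numbered 1035 to 1565. The left-out nuclease-treated library had a peak in 34.9% of them on average, with a range of 27.0% to 40.8%, and the left-out mock library in 31.8%, with a range of 27.7% to 34.9%. Mock was higher in 3 of the 9 cases, all those that left out nuclease-treated replicate 2, which had the shortest list. The 9 cases share libraries, and the libraries of a treatment share an input, so no p-value is given. Leaving out nuclease-treated replicate 2 gave the lowest nuclease-treated figures and leaving out mock replicate 3 the lowest mock figures, and these were the shorter lists of their treatments.

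**Figure D5:**
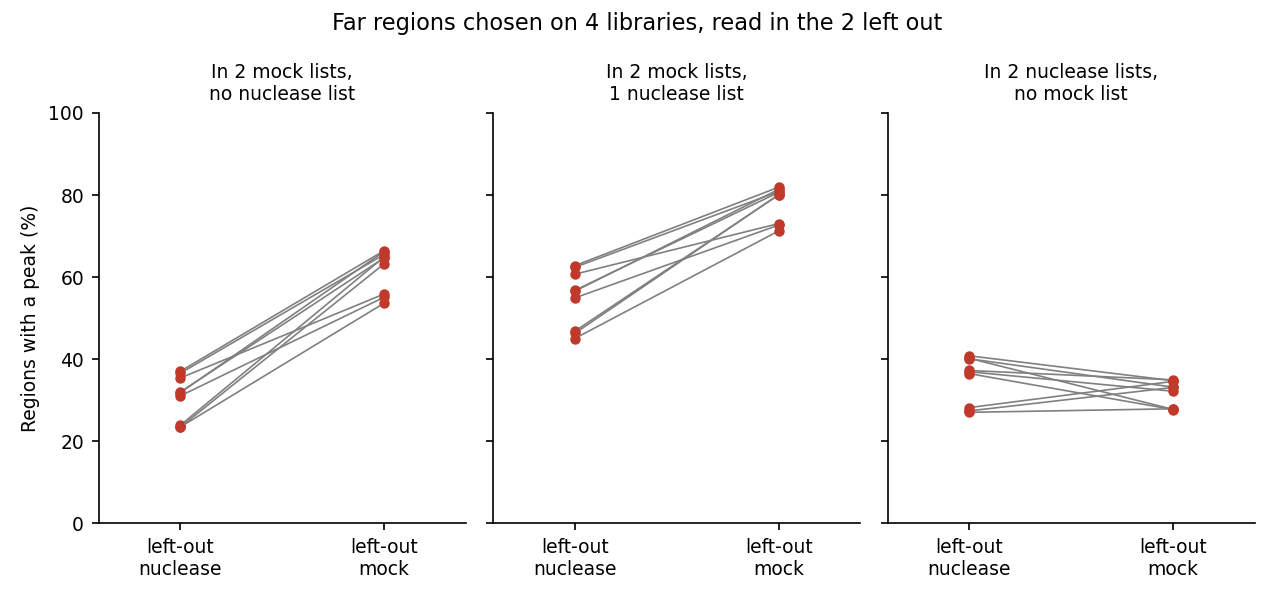
Percentage of far regions with a peak in the left-out nuclease-treated and left-out mock library, for regions chosen on 2 mock and 2 nuclease-treated lists; each line is 1 of 9 ways to leave out a library of each treatment. Every line goes up towards mock for both kinds of region with 2 mock peaks, and the lines of regions with 2 nuclease-treated peaks and no mock peak cross between 27.0% and 40.8%.

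In these libraries, fewer peaks of any kind were called far from persistent regions after nuclease treatment. They numbered 19109, 14378 and 21586 in nuclease-treated replicates 1, 2 and 3, against 26920, 26345 and 21965 in the mock replicates. The groups did not overlap, but the highest nuclease-treated library, replicate 3, was close to the lowest mock library, replicate 3. The means were 18358 ± 3662 and 25077 ± 2710 peaks (SD, n = 3 each; exact two-sided permutation p = 0.1, the smallest this design allows, and 0.2 adjusted over 4 measures). As a share of each list, far peaks made up 26.8 ± 3.05% in nuclease-treated and 31.9 ± 1.31% in mock libraries (exact permutation p = 0.1, adjusted 0.2). Their median coverage, 6.55 ± 0.259 and 6.81 ± 0.204 times background, gave an exact permutation p = 0.4. Their median width, 327 ± 5.86 and 342 ± 10.3 bp, gave p = 0.2 in the exact permutation test. The counts include the peaks of the 1838 far mock-only regions, which the rule chose for a peak in every mock list and in no nuclease-treated list. They also include the 7516 comparison regions, all with a peak in every mock list and by definition lacking one in at least 1 nuclease-treated list. Of these, 4117, 3106 and 4713 had a peak in nuclease-treated replicates 1, 2 and 3. Far regions with a peak in all 3 nuclease-treated lists numbered 2049. These comparisons thus draw on the peak calls that the rule used and are no independent measure of a loss at the far mock-only regions. The nuclease-treated lists were shorter, and the size of these differences depended on list length. With lists of equal length the difference in number was -1297 peaks in place of -6719, and that in coverage -0.85 in place of -0.26 times background (exact permutation p = 0.1 for each). At equal length the far mock-only regions numbered 1405, more than that difference in number. With a −log10 q of 3 or more required in the mock lists alone, the numbers differed by -2855 (exact permutation p = 0.3), and without nuclease-treated replicate 2 by -4422 (exact permutation p = 0.2). Strong far peaks stood further apart, with 843, 863 and 867 peaks of 10 times background or more in the nuclease-treated libraries, against 3344, 3262 and 2725 in the mock libraries. As a share of far peaks these were 4.41%, 6.00% and 4.02% in nuclease-treated replicates 1, 2 and 3, and 12.4% in each mock replicate. The rule bears on these counts too, since strong regions with a peak in all 6 lists are left out. The 298 far mock-only and 1900 comparison regions of 10 times background or more (mean over the mock libraries) each gave a peak to every mock list. By definition, each lacked one in at least 1 nuclease-treated list. Strong peaks over whole lists were not compared, so whether the gap is particular to far peaks is not known. Local background at far peaks was 1.22 ± 0.0337 times the genome-wide level in nuclease-treated and 1.04 ± 0.00937 in mock libraries (SD, n = 3 each), and its part in these differences was not tested.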

How the data were processed

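TET1 ChIP-seq peak lists of 3 nuclease-treated and 3 mock-treated libraries were used, and the 2 pooled inputs are not analysed here on their own. Per the submitters' processing notes, the tools included MACS2 2.1.1, Bowtie2 2.2.8, bedtools 2.25.0, SAMtools 1.3.1, deepTools 2.4.3 and Picard, on mm9 (NCBIM37), with parameters not given in the sources used. The peak names in the deposited lists name MACS2 and pair each library with the input of its condition. The authors deposited a fold (a ratio of coverage over local background at the summit), −log10 p and −log10 q per peak, a score (10 times the −log10 q, cut) and the summit offset. Lists held 69627, 61213 and 73197 nuclease-treated and 82126, 80862 and 72205 mock peaks on chromosomes 1 to 19.

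Summit coverage was solved from fold and p with MACS2's formulas, to within 0.001 of the −log10 p for all but 1 peak, which got a lower bound. Genome-wide background, the most frequent local background, was 2.11, 1.93 and 2.24 fragments in nuclease-treated and 2.25, 2.23 and 2.13 in mock replicates. Totals of fragments are unknown, and medians of 16 to 18 fragments limit single peaks. Where a library had several peaks in a region, the strongest was used. Intervals (95%) cover counting error only. Group means were compared by exact permutation over 20 label orders with Benjamini-Hochberg adjustment. Named regions are the 10 strongest, the 5 widest, the 5 most remote, the 3 largest groups and 3 on each side of the distance limit; the members, lists and rules were chosen with earlier results of these data known. Solving, merging and distances were tested on simulated data. Python 3.11.15, NumPy 2.4.6, pandas 2.3.3 and SciPy 1.17.1 were used.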

Additional observations from a re-analysis of the deposited data

Results flagged for a closer look

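Chromosome X lay outside the rule and its peaks were not used above. The same steps found 64 far mock-only regions there, 20.2% of its 317 far regions with a peak in all 3 mock lists (exact 95% binomial interval 15.9% to 25.04%, counting error only). The interval includes the 19.6% of chromosomes 1 to 19.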

How the results depend on the processing

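Of 188 recomputed values, 142 were labelled the same, 43 moved and 3 reversed. Values of far peaks per library, and strength by deposited fold or q value, were labelled by direction alone. For these the label says nothing of size or p-value, and the replicate-block values below are the same by construction. The other values were labelled the same when within the SD or counting interval of the main value, or within 1.5-fold for the number of regions. Leaving out a library accounted for 25 of the moved values and 1 reversal. Leaving peaks with a local background over 2 times genome-wide out of all lists accounted for 6 and the other 2. It gave 4159 far mock-only regions (30.2% of far regions), strength and width differences of 1.20 times background and 10.7 bp against -0.45 and -67.3 bp, a summit difference of -5 bp, a neighbour difference of 4.16 points, a held-out difference of 48.4 against 31.2 points and a width gap of 5.69 points. The filter removes more nuclease-treated peaks. Applied to the mock lists alone, an alternative chosen after seeing the data, as was the width gap, it gave 1856 regions. A limit of 50000 bp gave 792 regions and differences of -0.60 times background and -74.7 bp, and a limit of 20000 bp gave -71 bp. A −log10 q of 3 or more in all lists gave a share of 21.3%, -77 bp in width and -5.5 bp in summits, and in mock lists alone 18.7% and -71.3 bp. Lists of equal length gave -0.75 times background and -80 bp, and a difference of -1297 far peaks. Counting nuclease-treated peaks within 500 bp gave 18.6%. The causes were not tested. Leaving out each library gave 2386 to 3589 regions, a share of 24.5% to 37.9%, -0.92 to -0.45 times background, -68 to -53.3 bp in width, -6.33 to -5 bp in summits, -1.19 to 2.86 points between neighbours and a width gap of 33.9 to 44.2 points. Far peaks per library then differed by -8115 to -4422 in number, -6.48 to -3.48 points in share, -0.33 to 0.046 times background and -21.3 to -11.3 bp; the reversal in coverage came without nuclease-treated replicate 3 and the cause was not tested. Of the 10 strongest regions, 4 to 10 remained members over these settings. Same-numbered libraries were not paired by the data (correlations of deviations 0.012, -0.0046 and 0.037 at persistent regions). Taken as a replicate block they gave the same differences (-6719 far peaks, -5.12 points, -0.26 times background and -15 bp), with an exact sign-flip permutation p = 0.25 for number, share and width (the smallest possible) and 0.75 for coverage. No test here can pass 0.05.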
